A study of Caenorhabditis elegans with 2 samples.

Results

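The 81 protein-coding genes of Caenorhabditis elegans whose symbols start with rpl- or rps- and a digit, or with rla-, were examined for binding of LIR-3, a zinc-finger protein, among 19985 protein-coding genes annotated on WBcel235 (ce11). They comprised 47 rpl genes of the large ribosomal subunit, 31 rps genes of the small subunit and the 3 rla genes, which encode the acidic stalk proteins of the large subunit. Ribosomal proteins under other symbols, such as ubl-1, were not included. Binding was mapped by chromatin immunoprecipitation with sequencing (ChIP-seq) with an antibody to GFP in whole hermaphrodite L4 larvae of strain OP312, 48 hours after synchronization as starved L1 larvae. All animals carried the unc-119(ed3) mutation on chromosome III and the insertion wgIs312, from which LIR-3 is made with GFP and FLAG at its C-terminus. The description of each sample names the antibody as anti-GFP, where its antibody field names lir-3. The labels do not give the level of the fusion protein or the cells that make it, and strong binding in a few cells cannot be told apart from weak binding in many. There was 1 group of 2 biological replicates and no group without the transgene, so the comparisons are between genes and between replicates.

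Cytosolic ribosomal proteins assemble with ribosomal RNA into the large and small subunits in the nucleolus, and their genes are among the most highly transcribed of growing animals. They are transcribed by RNA polymerase II, in contrast to 5S ribosomal RNA and transfer RNA, which are made by RNA polymerase III. In many animals their introns also hold the genes of small nucleolar RNAs (snoRNAs), which guide the chemical modification of ribosomal RNA. Many worm messages receive a spliced leader in place of their first transcribed bases, so an annotated gene start can be a splice site that lies downstream of the true start of transcription.

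A gene was counted as having a summit when the highest point of a peak lay from 500 bp upstream to 200 bp downstream of its annotated start. Loosely called peaks, background included, numbered 17311 in the relaxed list of replicate 1, 20601 in that of replicate 2 and 20360 in the list of the pooled reads. Of the pooled peaks, 552 were retained by the submitters in a list labelled optimal under the irreproducible discovery rate (IDR). This method compares the ranks of peaks between replicates. A peak of the list need not be strong in both, as at rps-26 (rank 1594 in replicate 1). The lists hold no read counts, so depth is unknown. The signal value of a peak is a score given by the authors, of unstated scale, and values of different lists are not on 1 scale. Ranks count from 1 at the strongest peak of a list.

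The sequences below are shown because they lie under the strongest ribosomal protein gene peaks and share short words. Each is the 101 bases centred on the summit of the IDR peak, from the RefSeq genome of WBcel235 (ce11), written 5′ to 3′ on the strand of the gene. Capitals mark AGTGTAT and TACGGTAA on either strand. The rpl-3 sequence is chrIII:3867534-3867634 on the plus strand, that of rpl-20 chrIV:4750032-4750132 on the minus strand and that of rpl-15 chrIV:654845-654945 on the minus strand. The rpl-35 sequence is chrIII:7854627-7854727 on the plus strand, that of rps-1 chrIII:4475616-4475716 on the plus strand and that of rpl-7A chrIV:4390610-4390710 on the minus strand. The last is the strongest member peak that holds neither word.
rpl-3: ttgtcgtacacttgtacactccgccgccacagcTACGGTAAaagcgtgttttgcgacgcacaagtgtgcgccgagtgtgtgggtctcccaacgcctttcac
rpl-20: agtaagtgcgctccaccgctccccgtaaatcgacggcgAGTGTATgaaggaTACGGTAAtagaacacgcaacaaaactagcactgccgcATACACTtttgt
rpl-15: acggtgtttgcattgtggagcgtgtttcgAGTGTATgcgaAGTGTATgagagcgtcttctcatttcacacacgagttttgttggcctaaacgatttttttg
rpl-35: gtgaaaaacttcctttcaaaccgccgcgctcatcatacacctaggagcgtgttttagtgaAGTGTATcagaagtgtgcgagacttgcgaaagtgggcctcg
rps-1: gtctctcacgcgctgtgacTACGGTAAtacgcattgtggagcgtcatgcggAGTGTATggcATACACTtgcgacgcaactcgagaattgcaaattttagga
rpl-7A: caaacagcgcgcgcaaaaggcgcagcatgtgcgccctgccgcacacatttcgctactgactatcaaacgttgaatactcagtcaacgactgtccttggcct

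Summits of the IDR list lay at 13 of the 81 ribosomal protein genes (16.05%, 95% Wilson interval 9.63 to 25.5), where 1.04% of all protein-coding genes had one. They were at 7 of 47 large subunit genes (14.9%, 7.41 to 27.7), at 6 of 31 small subunit genes (19.4%, 9.19 to 36.3) and at none of the 3 rla genes. The intervals of the subunits overlap and cover counting error over genes only. The order of the subunits turned when each peak was given only to its nearest gene start, with 2 of 31 small subunit genes (6.45%) and 6 of 47 large ones (12.8%), and in the 276 strongest IDR peaks, with 6.45% and 10.6%. The relaxed pooled list had a summit at 46 of the 81 genes (56.8%, 45.9 to 67.0), against 18.9% of all protein-coding genes. Here the small subunit had 22 of 31 (71.0%, 53.4 to 83.9) and the large subunit 24 of 47 (51.1%, 37.2 to 64.7), again with overlapping intervals. Among genes with a pooled relaxed summit, 13 of 46 ribosomal protein genes (28.3%, 17.3 to 42.5) were also in the IDR list, where 5.49% of all such protein-coding genes were. Within the subunits this was 7 of 24 (29.2%) for the large and 6 of 22 (27.3%) for the small.

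**Figure D1:**
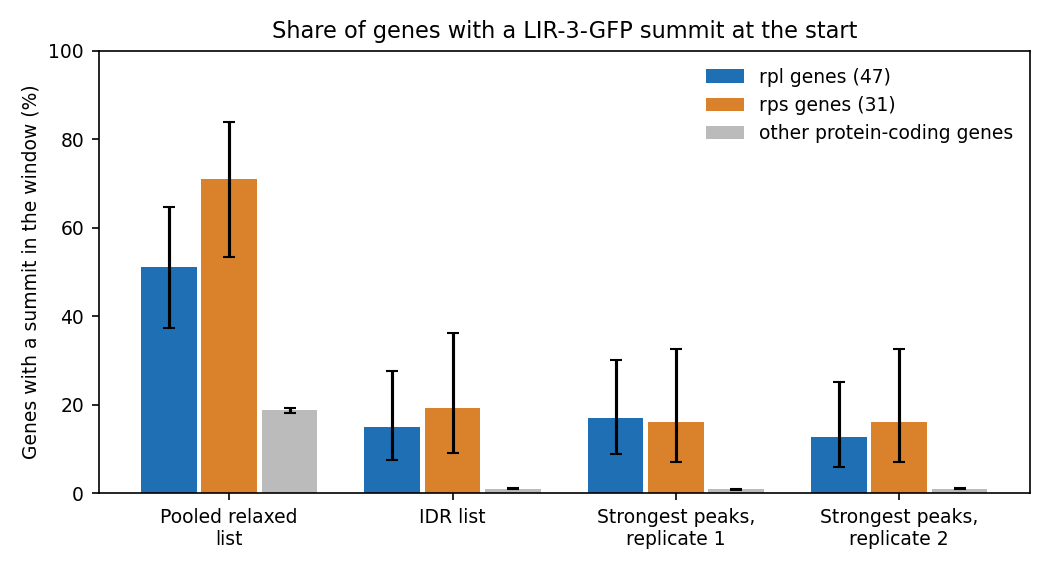
Share of genes with a summit from 500 bp upstream to 200 bp downstream of the start (y axis, percent) for 47 rpl genes, 31 rps genes and the other protein-coding genes, in 4 peak lists (x axis), with 95% Wilson intervals over genes as bars. The rpl and rps bars stand above the grey bar in each list, and their intervals overlap each other.

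Either replicate alone placed its strongest peaks at nearly as many of these genes. Among the 552 strongest peaks of replicate 1, summits lay at 13 of the 81 (16.05%), against 0.961% of all protein-coding genes. Among the 552 strongest of replicate 2 they lay at 11 (13.6%, 7.76 to 22.7), against 1.02%. The whole relaxed list of replicate 1 had a summit at 45 (55.6%) of the genes, where 16.1% of all protein-coding genes had one, and that of replicate 2 at 44 (54.3%), where 18.6% had one. A summit was in both whole lists for 30 genes, and 22 of the 81, among them rla-0, rla-2, rpl-4, rpl-19, rps-6 and rps-7, had none in the 3 relaxed lists. Of the stalk protein genes only rla-1 had one, in the list of replicate 1 (signal 18.8).

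The large subunit genes with an IDR summit included the 5 highest pooled signals of the family. The strongest was at rpl-3, whose product lines the peptidyl transferase centre (chrIII:3867454-3867710). Its pooled signal was 299.5, with 148.8 in replicate 1 and 151.8 in replicate 2, and the summit lay 270 bp upstream of the start. No other nuclear IDR peak at a protein-coding start, of 139 at genes outside the family, had a higher pooled signal than 259.8. At rpl-20, another gene of the large subunit, the pooled signal was 236.5, with 132.0 and 99.6 in replicates 1 and 2, and the summit was 304 bp upstream (chrIV:4749997-4750206). At rpl-15, a core protein of the large subunit, it was 196.1, with 98.1 and 96.7, and the summit was 319 bp upstream (chrIV:654687-655102). At rpl-35, whose human relative lies by the exit tunnel for the nascent chain, it was 185.7, with 95.6 and 87.8, and the summit was 457 bp upstream (chrIII:7854645-7854784). All 4 ranked 110 or higher in the list of each replicate.

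The other 3 large subunit genes had lower values. At rpl-7A the pooled signal was 156.8, with 98.4 in replicate 1 (rank 105) and 54.8 in replicate 2 (rank 326), and the summit was 70 bp upstream (chrIV:4390562-4390721). At rpl-12, whose product forms the base of the stalk with the P0 protein encoded by rla-0, the values were 113.5 pooled, 54.6 and 60.9. Its summit was the only one inside the gene, 15 bp downstream of the start, at the same base in both replicates (chrIV:13240428-13240843). At rpl-24.2 they were 107.6 pooled, 65.7 and 38.2, with the summit 114 bp upstream (chrI:9669093-9669508). The human relative of rpl-24.2, RSL24D1, acts in assembly of the large subunit and is not part of the mature ribosome. Without rpl-24.2, 12 of 80 genes (15%) had an IDR summit, 6 of 46 in the large subunit. In the list of replicate 2 the rpl-24.2 peak ranked 832, outside the 552 strongest.

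The 6 small subunit genes with an IDR summit had pooled signals from 99.3 to 139.6 (median 113.5), beside 107.6 to 299.5 (median 185.7) for the 7 large subunit genes. The ranges overlap, and the difference was not tested. The strongest were rps-1, related to human RPS3A (139.6 pooled, 71.0 in replicate 1 and 63.7 in replicate 2; chrIII:4475458-4475873), and rps-19, whose human relative is mutated in Diamond-Blackfan anaemia (138.0, with 62.9 and 76.1; chrI:9625810-9626225). At rps-15, a protein of the head of the small subunit, the values were 119.7 pooled, 68.1 and 50.5 (chrI:8816383-8816798). At rps-12 they were 103.9, 58.8 and 48.0 (chrIII:5678905-5679320). At rps-26, which lines the exit path of the messenger RNA, they were 107.2 pooled, 34.3 in replicate 1 and 67.1 in replicate 2 (chrI:14759289-14759704). At rps-24 they were 99.3, 62.5 and 37.0 (chrIV:385364-385779). The last 2 rest mainly on 1 replicate each: rps-26 ranked 1594 in replicate 1 and rps-24 ranked 904 in replicate 2.

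**Figure D2:**
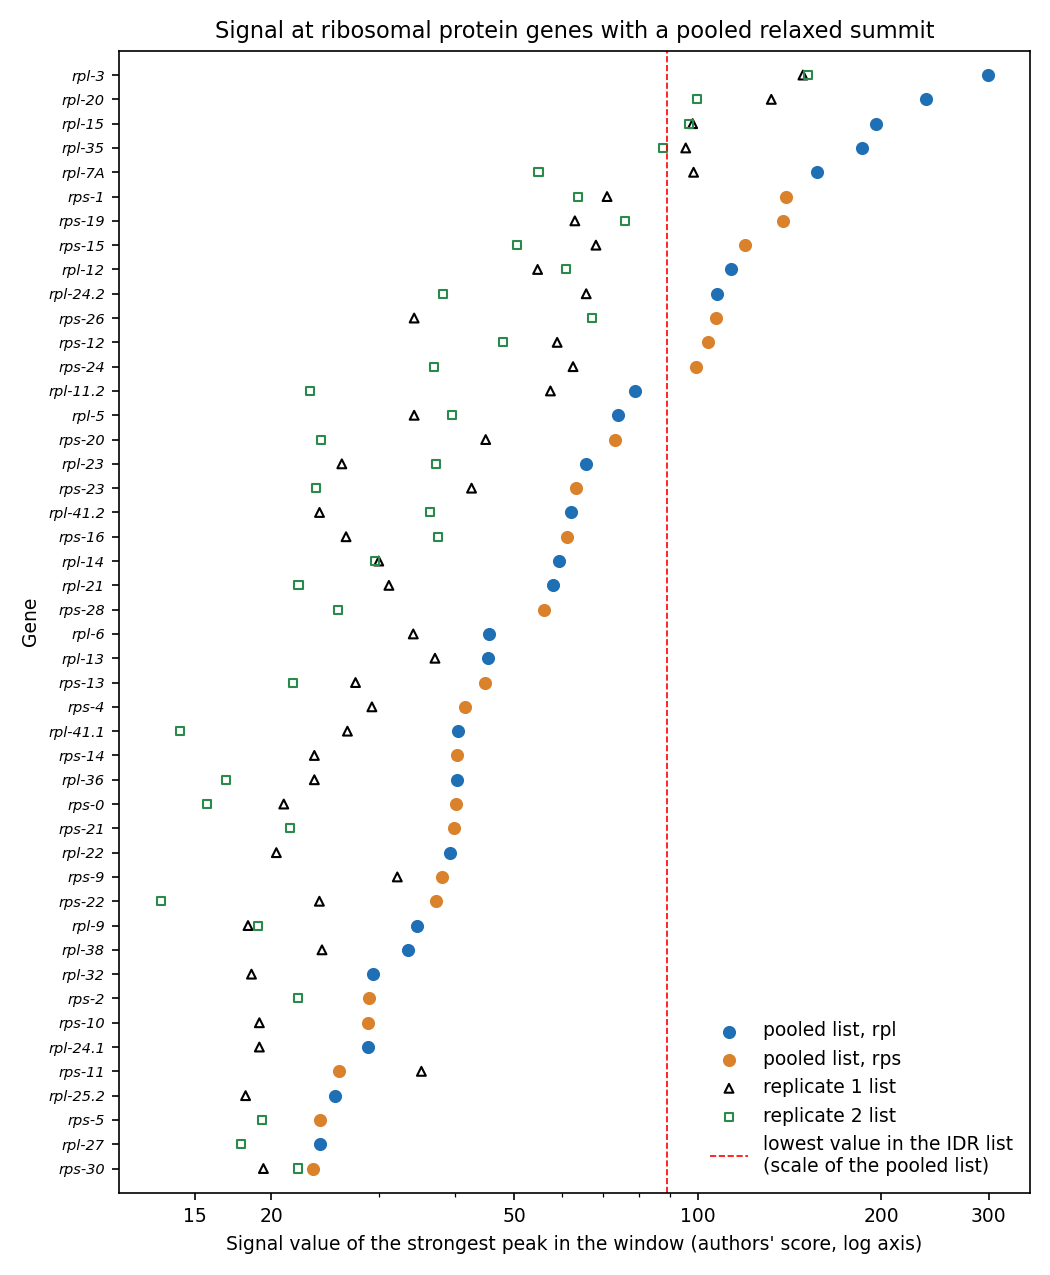
Signal value (x axis, the authors' score, log axis) of the strongest peak in the window of the 46 ribosomal protein genes with a pooled relaxed summit (y axis, ordered by pooled value), as filled circles for the pooled list and open symbols for each replicate's own list. The 13 genes right of the dashed line, which marks the lowest pooled value in the IDR list (88.9), run from rps-24 at 99.3 to rpl-3 at 299.5, and the next, rpl-11.2, is at 78.8.

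Between the IDR genes and the rest lay a gap in pooled signal, from 99.3 at rps-24 to 78.8 at rpl-11.2, with the lowest value of the IDR list at 88.9. Other protein-coding genes without an IDR summit reached 88.8, so a separation by pooled signal follows from how the IDR list is cut. The first gene below the gap, rpl-11.2, encodes a protein that binds 5S ribosomal RNA together with the product of rpl-5, which came next at 73.9. Values for rpl-11.2 were 57.4 in replicate 1 and 23.2 in replicate 2, so that it was among the 552 strongest of replicate 1 only. For rpl-5 they were 34.3 and 39.5. At rps-20 the pooled value was 73.1 (44.9 and 24.1 in the replicates), at rpl-23 it was 65.6 (26.1 and 37.3) and at rps-23, a protein of the decoding centre, 63.2 (42.6 and 23.6). At rpl-41.2 it was 62.0 (24.0 and 36.4), at rps-16 61.0 (26.5 and 37.6) and at rpl-14 59.3 (30.0 and 29.6). A close paralog of rpl-41.2, rpl-41.1, lies beside it and has a relaxed summit of its own (pooled signal 40.5). Whether reads match both genes was not tested. All 33 genes with a relaxed summit but none in the IDR list ranged from 23.5 to 78.8 (median 40.3), beside a median of 33.2 over the 3531 other protein-coding genes of that kind. With IDR genes included, the median was 50.8 over the 46 members and 34.0 over 3725 other genes.

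The replicates gave similar orders. Over the 30 genes with a summit in both lists, Spearman's rho of the signal values was 0.830, a description across genes that share the same 2 libraries. Over the 13 IDR genes it was 0.577, and over the other 17 it was 0.488. Of the 13, 12 were among the 552 strongest peaks of replicate 1, 11 among those of replicate 2 and 10 in both. Since the IDR list was made from these replicates, these counts are not independent of its calls. The summits of the 13 genes differed between the replicates by a median of 18 bp and at most by 66 bp, at rps-26.

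**Figure D3:**
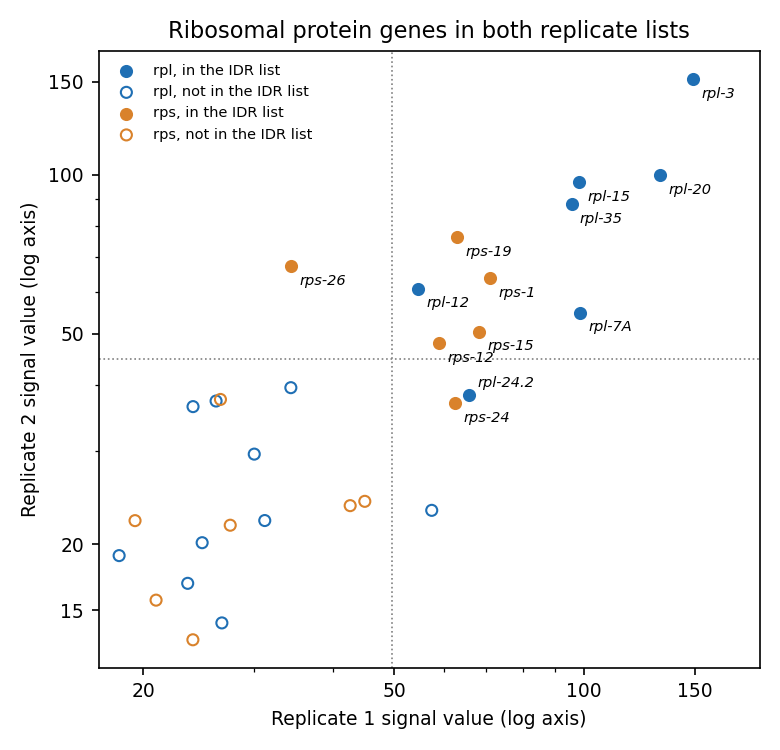
Signal value in replicate 1 (x axis) against replicate 2 (y axis), both log axes in the authors' score, for the 30 ribosomal protein genes with a summit in both lists. Dotted lines mark the lowest of the 552 strongest peaks in each list (49.6 and 44.8), and 10 of the 13 IDR genes lie above both.

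Summits at ribosomal protein genes lay mostly upstream of the annotated starts, in a window that itself reaches further upstream than downstream. The median position of the 13 IDR summits was 270 bp upstream, ranging from 457 bp upstream at rpl-35 to 15 bp downstream at rpl-12, and 12 of the 13 were upstream. All 6 small subunit summits were from 185 to 433 bp upstream (median 283.5), and the 7 large subunit summits had the same median as the 13. At the 182 other nuclear protein-coding genes with an IDR summit the median was 226.5 bp upstream, and 173 of these summits (95.1%) were upstream. A distance of 150 bp or more upstream held for 10 of the 13 (76.9%) and for 74.2% of those other genes, so the shares were close. In the relaxed pooled list the 46 members had a median of 276.5 bp upstream, with 34 (73.9%) at 150 bp or more, and the 3713 other nuclear genes a median of 143 bp, with 48.8% at 150 bp or more. The 33 members without an IDR summit had a median of 280 bp.

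**Figure D4:**
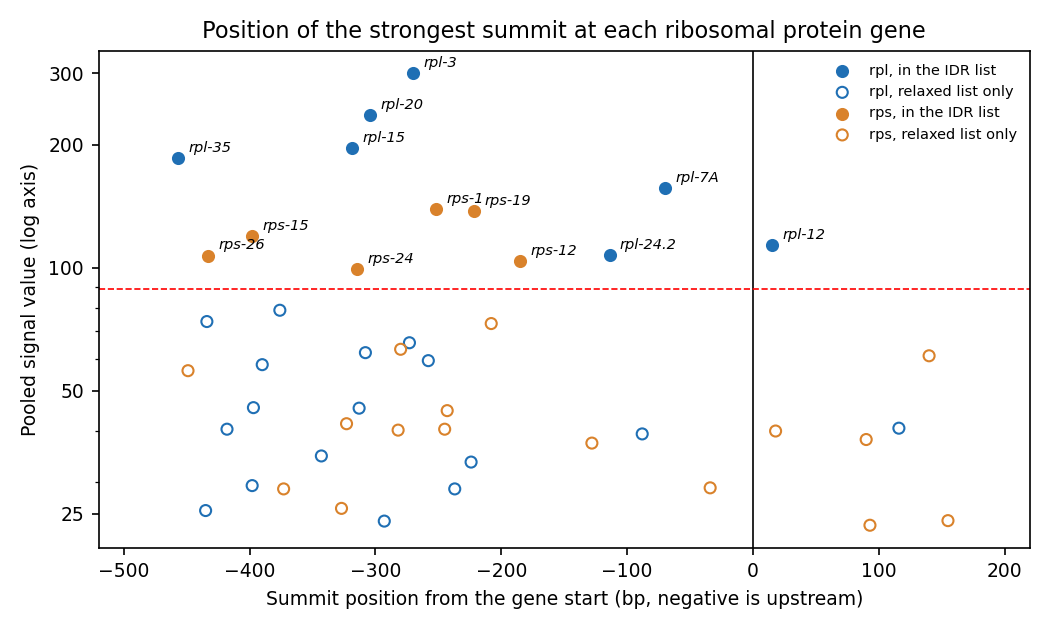
Position of the strongest pooled summit from the gene start (x axis, bp, negative is upstream) against its pooled signal value (y axis, log axis) for 46 ribosomal protein genes, filled where the peak is in the IDR list. Of the 46 points, 33 lie from 150 to 450 bp upstream, rpl-12 is the only filled point right of the start, and the dashed line is the lowest value in the IDR list (88.9).

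A gene was counted as sharing an IDR summit when the summit lay in that gene's own window, from 500 bp upstream to 200 bp downstream of its start. Of the 13 IDR summits, 4 were shared with no other gene and 5 with another protein-coding gene only. Of the rest, 1 was shared only with unclassified noncoding RNAs and 3 with a snoRNA gene among others. The 4 shared with no other gene were those of rpl-3, rpl-35, rpl-24.2 and rps-24. The annotated start of rpl-24.2 lies within another protein-coding gene. The 5 shared with a protein-coding gene only included rpl-20 with Y17G9B.5 (summit 158 bp upstream of it) and rpl-15 with K11H12.8 (495 bp). The others were rps-19 with hsr-9 (223 bp, against 222 bp for rps-19), rps-15 with F36A2.9 (383 bp) and rpl-12 with lin-54 (408 bp). Of these neighbours, lin-54 encodes a DNA-binding subunit of the DREAM complex. The rps-1 summit was 9 bp upstream of F56F3.11 and 90 bp inside F56F3.10, both annotated as ncRNA. Another protein-coding gene shared 8 of the 13 summits (61.5%), and 26.6% of the 139 other summits lay in the windows of 2 or more protein-coding genes. The start of the ribosomal protein gene was the nearest of all to the summit in 8 of the 13. It was not the nearest for rpl-20, rps-1, rps-15, rps-26 and rps-12, so 4 of these 5 were small subunit genes.

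The summit lay in the window of a small RNA gene (tRNA, snoRNA, snRNA or miRNA) for 3 of the 13 peaks (23.1%). The same held for 29 (20.9%) of the 139 other nuclear IDR peaks at protein-coding starts. In all 3 the small RNA gene was a snoRNA gene. The rpl-7A summit was 352 bp upstream of Y24D9A.9, which lies within rpl-7A, and 184 bp upstream of set-21 on the other strand. The rps-12 summit was 265 bp upstream of F54E7.10, within rps-12, and 108 bp upstream of ska-3 on the other strand. In both cases the start of the ribosomal protein gene was nearer than that of the snoRNA. The rps-26 summit was 85 bp upstream of F39B2.14, which lies within the neighbour tmem-107, and 24 bp upstream of tmem-107 itself, against 433 bp for rps-26. None of the 13 summits lay in the window of a tRNA, snRNA or miRNA gene.

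Hosts of small RNAs had a share of summits close to that of the other genes. On their own strand 14 of the 81 genes hold 21 small RNA genes, all snoRNAs except cel-mir-354 in rps-20 and mir-353 in rpl-24.1. An IDR summit lay at 3 of the 14 hosts (21.4%), namely rpl-15, rpl-7A and rps-12, and at 10 of the 67 other genes (14.9%). A relaxed summit lay at 9 of the 14 (64.3%) and at 37 of the 67 (55.2%). Of the 21 hosted genes themselves, 2 had an IDR summit in their own windows, Y24D9A.9 and F54E7.10, which are the shared peaks above. In the pooled relaxed list 7 of the 21 had a summit in theirs. No share over all small RNA genes stands beside these counts. The 3 snoRNA genes within rpl-6, R151.11, R151.12 and R151.13, had no summit of the pooled relaxed list in theirs.

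Neighbours were compared by their direction, with no test. Only protein-coding genes lying wholly upstream were taken as neighbours, so a gene that spans the start was passed over, as at rpl-24.2. The nearest one pointed away within 2000 bp for 49 of the 81 genes, of which 9 (18.4%) had an IDR summit. It lay on the same strand for 25, of which 2 (8.0%) had one, rpl-3 and rpl-24.2. The remaining 7 had none within 2000 bp, and rpl-35 and rps-24 had an IDR summit among them. Relaxed summits were at 27 of the 49 (55.1%) and at 15 of the 25 (60.0%), so the order of these shares was the other way round. For 9 genes a same-strand gene ended within 500 bp upstream, an arrangement that worm operons share. An IDR summit lay at none of these 9, which by 3 counts over the total allows a share of up to 33.3%, and a relaxed summit at 3 of them, rps-16, rps-2 and rpl-27. Pairs of ribosomal protein genes that point away from each other shared 1 relaxed peak in the case of rpl-36 and rps-14 (pooled signal 40.3) and of rpl-24.1 and rps-10 (28.8). By chromosome, IDR summits were at 4 of 25 genes on I, 4 of 18 on III and 5 of 18 on IV. There was none among 10 on II (up to 30%), 8 on V (up to 37.5%) and 2 on X.

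The short words marked in the printed sequences were picked after those were read, so their shares are descriptions. AGTGTAT lay within 50 bp of the summit at 4 of the 13 genes (30.8%), rpl-20, rpl-15, rpl-35 and rps-1, at 3 of the 139 other IDR peaks at protein-coding starts (2.16%) and at 1.04% of 20337 nuclear relaxed summits. In the whole gene window, 500 bp upstream to 200 bp downstream, it lay at those same 4 of the 81 ribosomal protein genes (4.94%), at 0 of the 68 without an IDR summit (up to 4.41%) and at 7.22% of all nuclear protein-coding genes. The 7 matches at these 4 genes lay 4 to 42 bp from the summit, all within the printed sequences from which the word was picked. In rpl-15 there were 2 matches on the same strand with 4 bases between them. In rps-1 there were 2 on opposite strands, 3 bases apart, and in rpl-20 2 on opposite strands, 44 bases apart.

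TACGGTAA was spread over more of the family. In the gene window it lay at 13 of the 81 genes (16.05%) and at 2.63% of all nuclear protein-coding genes. The 13 were 8 large and 5 small subunit genes, at 12 sites, since rpl-24.1 and rps-10 share 1. Only 3 of them, rpl-3, rpl-20 and rps-1, were among the 13 genes with an IDR summit (23.1%), and the other 10 were among the 68 without one (14.7%). The matches lay from 85 to 418 bp upstream of the start, with a median of 279 bp. Of the 13 genes, 9 had a pooled relaxed summit, within 50 bp of the match in 7 and within 100 bp in all 9. The 7 include rpl-3, rpl-20 and rps-1, where closeness to the summit follows from picking the word in their printed sequences. No such distances at other genes stand beside these. At rpl-24.1 and rps-10 the match was 3 and 4 bp from the shared summit, at rps-23 25 bp and at rpl-11.2 31 bp. For rpl-1, rpl-18, rpl-34 and rps-17, which hold the word, the pooled list had no summit in the window. GGAGCG, a word picked in the same way, lay at 25 of the 81 gene windows (30.9%) and at 11.0% of all nuclear protein-coding ones.

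Other motifs, among them the internal promoter boxes of tRNA genes, matched at few of the 13 summits. TGCGTCTC was within 50 bp at 0 of 13 (up to 23.1%), against 14 of the 139 other IDR peaks at protein-coding starts (10.1%). Among the 110 of these without a small RNA start the share was 12.7%. In whole gene windows the word lay at 5 of the 81 members (6.17%), none of them among the 13, and at 5.58% of all nuclear protein-coding genes. The B box core GTTCNANNC was at 0 of 13, against 10.1% of those peaks and 26.6% of all 530 nuclear IDR peaks, tRNA genes included. Without the 29 of the 139 peaks whose summit lay in the window of a small RNA gene, its share was 4.55%. The A box matched at rpl-15 only (7.69%), against 16.5% of the 139 peaks and 35.7% of the 530, but 5.45% of the 110 without a small RNA start. The E2F words TTCCCGC or TTGGCGC matched at 2 summits only, rpl-12 and rps-12 (15.4%, against 5.76% of the 139 peaks and 4.15% of the 530). In whole gene windows they lay at 3 of the 13 genes (23.1%), against 11.2% of all nuclear protein-coding genes. The 68 members without an IDR summit had 4 (5.88%), and all 81 members had 7 (8.64%). The core TATA word TATAAA was at 0 of 13 and at 5.76% of the 139 other peaks, and CCCGCC at 0 and 9.35%. The repeat GAGAGAGA was at 0 and 1.44%, the thymine run TTTTTTTT at 0 and 2.88%, and the splice acceptor word TTTCAG at 0 and 7.19%. Each count of 0 of 13 allows a share of up to 23.1%. In the whole gene windows of the 13, TTTCAG lay at 12, TATAAA at 6, TTTTTTTT at 5, CCCGCC at 2 and GAGAGAGA at 0. Over all nuclear protein-coding genes these window shares were 78.8%, 62.7%, 55.4%, 12.1% and 5.86%. All motifs were searched on both strands. The GC content of the 13 windows ranged from 38.6 to 56.4% (median 49.5%), beside a median of 50.5% for the 139 others and 40.6% for relaxed summits.

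Lists of other genes that serve translation had relaxed summits at 42.5 to 52.0% of their genes. This stands beside 56.8% of the ribosomal protein genes and 18.9% of all protein-coding genes. Their IDR summits were at smaller shares than those of the ribosomal protein genes. These differences were not tested. Mitochondrial ribosomal protein genes (mrpl and mrps) had a relaxed summit at 36 of 70 (51.4%) and an IDR summit at 1 (1.43%, 0.253 to 7.66), mrpl-32 (112.4 pooled, 56.5 and 59.7 in the replicates). Translation factor genes had 17 of 40 (42.5%) and 3 (7.50%, 2.58 to 19.9). These were iff-2, which encodes eIF5A (162.7, with 90.4 and 69.3), eif-3.C (109.5, with 62.8 and 41.6) and eef-1G (91.8, with 49.2 and 38.7). Aminoacyl-tRNA synthetase genes had 15 of 32 (46.9%) and 1 (3.13%, 0.554 to 15.7), ears-2 (120.0, with 61.2 and 55.3). Genes of ribosome assembly and RNA polymerase I had 13 of 25 (52.0%) and no IDR summit (up to 12%). Beside the 1.04% of all protein-coding genes, the 16.05% of the cytosolic ribosomal protein genes was the highest of these 5 shares.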

How the data were processed

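Peak lists in narrowPeak format on build ce11 were used, made by the authors from 2 ChIP-seq replicates with a control alignment, per the labels' file listing. The aligner and the peak caller were not given in the sources used here. The deposited signal value is a score per peak of unstated scale. The authors' −log10 q-values entered no comparison. The deposited summit offset (unit other, in bp) was added to the peak start. A mock or untagged precipitation was not analysed here. Lists on ce10 were left out, since coordinates were not converted.

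Gene starts came from Ensembl release WBcel235 (ce11), 1-based. A summit counted for every gene whose window held it, and the one of highest signal gave a gene's value. Motif shares used equal windows of the RefSeq genome in place of the promoter table first planned, which was not used here. No test was run across genes: counts stand beside all protein-coding genes, with Wilson intervals. For a count of 0 the limit is 3 counts over the total. No read counts were used, so intervals cover counting error over genes only. The members, lists and motifs were chosen with earlier results of these data known. Named are all members with an IDR summit, the next 8 by pooled signal, genes sharing a summit, and up to 3 of each other list. Other genes named were picked after their values were seen. Placed summits were all recovered on simulated data (751 of 751 in 20 runs), which checks only the counting code. Alternatives were other windows, stricter lists, 1 replicate, transcript starts and nearest starts. The tools were scipy 1.17.1, pandas 2.3.3 and numpy 2.4.6 under Python 3.11.15, with figures by matplotlib 3.10.9.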

Additional observations from a re-analysis of the deposited data

How the results depend on the processing

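The count of 13 ribosomal protein genes with an IDR summit was also 13, of the same genes, with a window of 1000 bp upstream, with overlap of whole peak intervals and with any annotated transcript start. It was 11 to 13 with the strongest peaks of 1 replicate: rpl-24.2 and rps-24 dropped out without replicate 1, and without replicate 2 rps-26 dropped out and rpl-11.2 came in. Leaving out peaks with a summit in the window of a small RNA gene gave 10. The 276 stronger peaks of the IDR list, fewer by construction, held 7 of them, with 2 rather than 6 of the small subunit. Giving each peak only to the nearest gene start left 8, again with 2 rather than 6 of the small subunit, because the start of another gene was nearer to 5 of the summits. Over all protein-coding genes the share was 0.46% in the 276 stronger peaks (8.64% of the members), 0.56% with the nearest start (9.88%) and 0.816% without small RNA starts (12.3%). Small and large subunit shares were 6.45% and 10.6% in the stronger peaks, 6.45% and 12.8% with the nearest start and 16.1% and 17% without replicate 2, against 19.4% and 14.9% as reported, so their order depends on these choices. Leaving out rpl-24.2, chosen after seeing the data, gave 12, with 6 of the large subunit. Relaxed summits were at 44 to 55 genes, the median IDR summit was 270 to 288 bp upstream, and TGCGTCTC was at 0 summits in every setting run. Depth is unknown, 2 replicates give only a rough spread for a single gene, and the strength of weak peaks could not be judged without reads. No paired analysis was possible because both samples form 1 group.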

Other observations

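One further IDR peak lay near a ribosomal protein gene but outside the window. It was 726 bp downstream of the start of rpl-27, 171 bp beyond the end of that gene (chrI:1835549-1835707, pooled signal 139.7), and 52 bp upstream of the start of egl-30, which encodes a G protein alpha subunit, and 171 bp upstream of C53H9.4. The weak relaxed summit of rpl-27 itself, 293 bp upstream, had a pooled signal of 24.0.

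AGTGTAT lay within 50 bp of 10 of the 530 nuclear IDR summits, 4 of them at ribosomal protein genes. The highest of the 10 was at tasp-1 (259.8), followed by rpl-20 and rpl-15. The other 5 outside the family were at a site on chromosome IV with no gene start in its window (191.9), at F59C12.11 and F59C12.t3 (114.3), at a site on X with no gene start (95.7), at ctf-4 and eef-1G (91.8) and at cox-5B (89.7). The word was picked after the sequences of the ribosomal protein gene peaks were read.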
